A study of Mus musculus with 24 samples.

Results

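The change of the bioreactor retina between differentiation day 22 (D22) and day 25 (D25) was described from 6 of the 24 libraries of the series, the 3 libraries labelled RWB D25 and the 3 labelled RWB D22. Both groups are retinal tissue made in the dish from mouse embryonic stem cells: optic cups were cut from the organoids and kept in a rotating-wall bioreactor (RWB), a slowly turning vessel that holds the tissue in suspension. The stem cells were wild type, either a line from Nrl-GFP transgenic mice, in which the rod promoter of Nrl drives a green fluorescent protein, or the R1 clone, and the labels do not say which line gave which library. From D18 on, every bioreactor culture had the same medium, with N2, B27 without vitamin A, serum, non-essential amino acids, taurine, 9-cis retinal and IGF1, so the groups differ in age and not in a labelled treatment. The series calls its repeat experiments biological replicates. RWB D18 (2 libraries) and dissected cups in static suspension culture (SSCd D28 and SSCd D22, 3 libraries each, same medium) are used for comparison.

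In the mouse retina, progenitors divide and give rise to ganglion cells, horizontal cells, cones and amacrine cells first, and to rods, bipolar cells and Müller glia late. A new rod first switches on its transcription factors Nrl and Nr2e3 and only later fills with the phototransduction proteins of its outer segment and builds a ribbon synapse onto bipolar cells. The comparison of D25 with D22 asks which genes moved in a late stretch of this course, when division ends and photoreceptors mature.

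The 6 libraries held 14944549 to 17580893 estimated counts. Replicate 1 of each day stood apart: mitochondrially encoded genes took 13.1, 5.02 and 3.95% of the counts in D25 replicates 1 to 3, against 10.2, 5.21 and 4.42% in D22 replicates 1 to 3. D25 replicate 1 also lay apart from the other D25 libraries on the second principal component (44.0 against -9.49 and -26.8). Same-numbered libraries of the days deviated from their group means together, so the numbers were treated as pairs in an alternative fit. The tissue label held against its markers: Crx ranged over 1410 to 1640 CPM at D25 and 873 to 1340 CPM at D22, and Pax6 over 400 to 618 CPM at D25 and 562 to 683 CPM at D22 (CPM, counts scaled to library size after TMM normalization). Krt5 and Krt14 of surface epithelium had no count in the 6 libraries, Rpe65 of the pigment epithelium had 2 counts in all, and Cdh5 of endothelium had 5. Further markers of these types did have counts, so the types cannot be called absent. Epcam and Cdh1 of surface epithelium had 189 and 286 counts in all. Tyr and Mitf of the pigment epithelium had 645 and 841, and Pecam1 and Flt1 of endothelium had 135 and 116. Ttr, which pigment epithelium and choroid plexus express, varied among libraries of 1 day, over 5.24 to 970 CPM at D25 and 28.1 to 493 CPM at D22.

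Between the days, genes of phototransduction, the outer segment and the photoreceptor synapse were higher at D25, while genes of cell division, progenitors and neurogenesis were lower at D25. Of 16792 genes tested, 331 (1.97%) were called higher and 542 (3.23%) lower at D25, 5.20% in all, by edgeR's quasi-likelihood test at an adjusted p under 0.05 (Benjamini-Hochberg). Log2 fold changes are D25 over D22 and are given ± their standard error, with 3 libraries a day. The median log2 fold change of all genes tested was 0.03, that of the genes called higher was 0.98 and that of the genes called lower was -1.34. Changes of over 4-fold were met by 32 of the genes called higher and by 73 of those called lower. The 3 D25 libraries all lay above the 3 D22 libraries for 10.3% of the genes tested and all below them for 10.0%. In bulk RNA, fewer cells of a type and less RNA per cell cannot be told apart. The count of called genes was 445 without D22 replicate 2, 579 without D22 replicate 3 and 437 without both libraries numbered 1, against 873 with all.

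**Figure D1:**
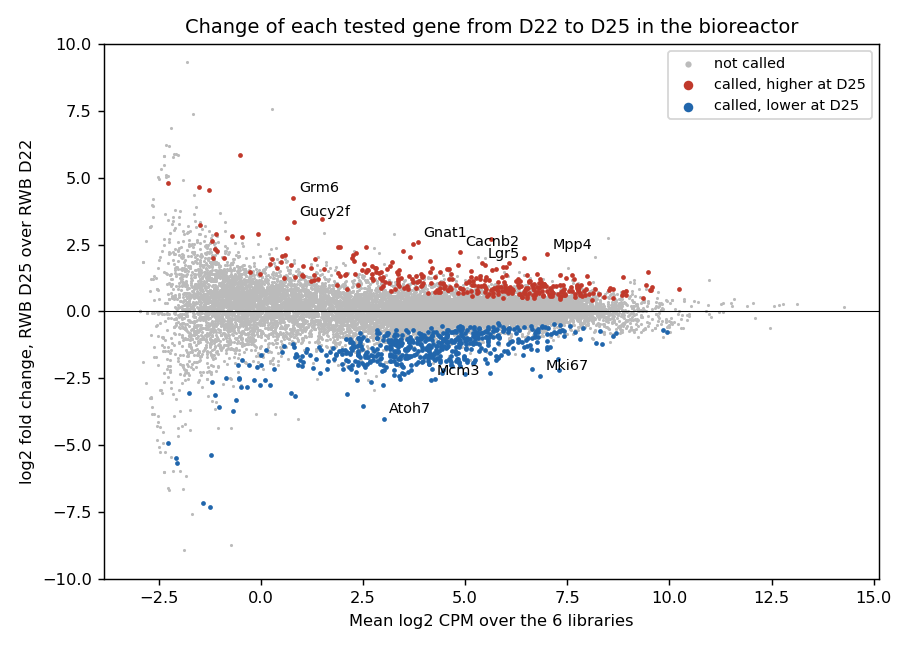
Each point is 1 of the 16792 genes tested, with its mean log2 CPM over the 6 libraries on the x axis and its log2 fold change, RWB D25 over RWB D22, on the y axis. Red points are the 331 genes called higher at D25 and blue points the 542 called lower; Grm6 and Gucy2f lie highest and Atoh7 lowest among the genes labelled.

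Among called genes with a mean log2 CPM of 3 or more and no overlap between the days, the 12 highest in fold included Gnat1, Impg1, Kcng4, Cacnb2, Mpp4, Bhlhe41, Gckr, Lgr5, Rdh12 and Gucy2e, with log2 fold changes of 1.75 to 2.59. By textbook knowledge, photoreceptors use several of these: a transducin subunit, a matrix proteoglycan, a calcium channel subunit, a synaptic scaffold, a retinol dehydrogenase and a guanylate cyclase. The 12 lowest by the same rule were Atoh7, Mcm3, Crabp2, Uhrf1, Vxn, Mki67, Plk1, Foxn4, Cenpe, Ckap2l, Espl1 and Ccnb1, with log2 fold changes of -4.01 to -2.30. These are replication and mitosis genes, the proneural factor Atoh7, the neurogenesis genes Foxn4 and Vxn, and Crabp2, a retinoic acid carrier. On GRCm38, Gnat1 lies at chr9:107674474-107679712 and Atoh7 at chr10:63099651-63101279. All 12 lowest kept their call whichever of the 6 libraries was left out, as did Gnat1, Impg1, Cacnb2, Mpp4, Lgr5 and Gucy2e among the highest. Kcng4 (log2 fold change 1.89 to 2.79), Bhlhe41 (1.44 to 2.08), Gckr (1.62 to 2.24) and Rdh12 (1.51 to 2.08) lost it: without D22 replicate 2 for all of these, without D22 replicate 1 or D25 replicate 2 also for Bhlhe41 and Rdh12, and without D22 replicate 3 or D25 replicate 1 also for Kcng4 and Rdh12.

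Rod phototransduction genes were higher at D25 as a group. Of 22 members tested, 10 were called higher and none lower, beside 1.97% and 3.23% of all genes, and the median log2 fold change was 1.46, with all 22 values above 0. Gnat1, the rod transducin alpha subunit that passes on the light signal, had 25.4, 45.8 and 37.7 CPM at D25, against 7.01, 7.38 and 3.74 CPM at D22. Every D25 library lay above every D22 library, and the log2 fold change was 2.59 ± 0.51, adjusted p = 0.00428. The catalytic phosphodiesterase subunit Pde6a, which breaks down cGMP, had 7.93, 13.6 and 20.7 CPM at D25, against 1.75, 3.38 and 2.87 CPM at D22. It rose likewise without overlap, by 2.39 ± 0.50, adjusted p = 0.00629, while its partner Pde6b had 168, 279 and 202 CPM at D25, against 73.0, 140 and 80.0 CPM at D22 and did not pass the test (1.15 ± 0.40, adjusted p = 0.113).

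The guanylate cyclases that make cGMP anew after a flash rose too. Gucy2e had 31.3, 46.2 and 87.9 CPM at D25, against 12.6, 15.6 and 21.1 CPM at D22. Gucy2f had 6.11, 4.17 and 5.24 CPM at D25, against 0.305, 0.739 and 0.436 CPM at D22. The days did not overlap for either cyclase, and the log2 fold changes were 1.75 ± 0.31, adjusted p = 0.00217 for Gucy2e and 3.35 ± 0.71, adjusted p = 0.00724 for Gucy2f. The members called also included Gnb1 of transducin, Gnb5, Rgs9 and Rgs9bp of the complex that shuts transducin off, and the exchanger Slc24a1. The number of members called was 5 without D22 replicate 3, without both libraries numbered 1 or in a fit of the 6 libraries alone, and 16 with DESeq2. With the replicate number as a block (replicate block) it was 16 over all 24 libraries and 18 on the 6 libraries alone, where Pde6b passed too (adjusted p = 0.000688). Sag, rod arrestin, had 1100, 1334 and 1020 CPM at D25, against 818, 1237 and 571 CPM at D22, with overlap, and did not pass the test (0.40 ± 0.47, adjusted p = 0.725).

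Promoters of these genes were searched for TAATCC on either strand, the core bound by Crx-type homeodomain factors, in the window from 250 bases before to 50 after the RefSeq start. It was found in 9 of 15 promoters of the phototransduction list (60.0%) and 6.0% of all 15555 promoters of genes tested, and in 11.6% of those of genes called higher and 3.2% of those of genes called lower. The promoters of the cyclase genes are shown because both genes were called and both hold the motif (RefSeq, GRCm38.p6, minus strand, 5′ to 3′; capitals mark TAATCC or its reverse complement GGATTA). Gucy2e lies at chr11:69236973-69237272 and Gucy2f at chrX:142196887-142197186.
Gucy2e: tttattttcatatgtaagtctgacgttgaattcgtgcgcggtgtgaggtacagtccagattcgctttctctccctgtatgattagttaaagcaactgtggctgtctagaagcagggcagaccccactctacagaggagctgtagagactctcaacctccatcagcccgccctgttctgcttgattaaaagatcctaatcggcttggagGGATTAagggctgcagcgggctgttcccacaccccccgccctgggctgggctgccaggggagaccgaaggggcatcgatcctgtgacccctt
Gucy2f: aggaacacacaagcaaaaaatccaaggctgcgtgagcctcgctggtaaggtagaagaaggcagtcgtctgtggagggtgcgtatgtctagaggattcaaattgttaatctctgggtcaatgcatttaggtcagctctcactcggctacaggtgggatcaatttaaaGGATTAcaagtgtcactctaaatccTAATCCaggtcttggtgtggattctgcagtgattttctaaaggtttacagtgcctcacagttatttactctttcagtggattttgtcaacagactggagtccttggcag
A match describes these letters and was not tested as a binding site.

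Outer segment genes followed in the same direction. Of 21 members tested, 7 were called higher and none lower, beside 1.97% and 3.23% of all genes. The median log2 fold change was 0.83, with all 21 values above 0. Impg1, a proteoglycan of the matrix around the outer segments, had 31.9, 37.4 and 26.5 CPM at D25, against 4.42, 7.94 and 4.30 CPM at D22. Its days did not overlap, and its log2 fold change was 2.52 ± 0.49, adjusted p = 0.00418. Prph2, which shapes the rims of the discs, had 302, 538 and 401 CPM at D25, against 123, 234 and 134 CPM at D22, again without overlap (1.34 ± 0.36, adjusted p = 0.0359). Cdhr1, a cadherin at the base of the discs, had 1125, 828 and 961 CPM at D25, against 570, 422 and 476 CPM at D22, with a log2 fold change of 0.99 ± 0.21, adjusted p = 0.00791. The members called also included Rdh12, Abca4 and Mak. Only 2 members were called without D22 replicate 1, 2 or 3 or D25 replicate 2, and 4 without D25 replicate 3; the count was 2 on the 6 libraries alone or without both libraries numbered 1, 3 with no filter on low counts and 19 on the 6 libraries with the replicate block. Prph2 lost its call without D22 replicate 1 or 3 or D25 replicate 2 or 3 (1.11 to 1.69 on the log2 scale) and Cdhr1 without D22 replicate 2 (log2 fold change 0.89). Abca4, the retinoid transporter of the discs, lost it in each case except without D25 replicate 1 (0.88 to 1.16). Of 25 genes of the photoreceptor cilium and its transport, 1 was called higher, beside 1.97% of all genes. This was Tub, which carries receptors into cilia, with 261, 262 and 294 CPM at D25, against 111, 119 and 117 CPM at D22. All D25 libraries lay above all D22 libraries, with a log2 fold change of 1.24 ± 0.25, adjusted p = 0.00569. The median of the cilium list was 0.41, and 2 members were called without D25 replicate 1 or without D25 replicate 3. With the replicate block, 2 were called within the RWB groups, 3 over all 24 libraries and 7 on the 6 libraries alone, and DESeq2 called 5.

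The calcium channel of the photoreceptor ribbon synapse rose in every subunit measured here. Its accessory subunit Cacna2d4 (chr6:119236526-119352407) had 84.6, 71.3 and 89.9 CPM at D25, against 20.9, 26.7 and 26.6 CPM at D22. Its beta subunit Cacnb2 had 60.5, 73.7 and 54.9 CPM at D25, against 13.3, 14.2 and 12.8 CPM at D22. The libraries of a day lay close together and the days far apart for both, with log2 fold changes of 1.73 ± 0.21, adjusted p = 0.000135 for Cacna2d4 and 2.23 ± 0.34, adjusted p = 0.000638 for Cacnb2. The pore subunit Cacna1f had 30.4, 77.7 and 78.0 CPM at D25, against 16.7, 26.5 and 22.8 CPM at D22. D25 replicate 1 was the lowest of its day but above every D22 library, and the log2 fold change was 1.50 ± 0.35, adjusted p = 0.0134. Mpp4, a scaffold of the photoreceptor terminal, had 196, 331 and 296 CPM at D25, against 52.0, 72.1 and 62.3 CPM at D22, with no overlap and a log2 fold change of 2.14 ± 0.32, adjusted p = 0.000538. Of 23 ribbon synapse members tested, 6 were called higher and none lower, beside 1.97% and 3.23% of all genes. The median log2 fold change of the list was 0.79. The others called were Cplx4, a complexin of ribbon synapses, and the release proteins Syt1 and Snap25. The ribbon and active zone genes Ctbp2, Bsn and Rims1 had log2 fold changes of -0.04, -0.06 and 0.16 and did not pass the test. The count of members called was 3 without D22 replicate 2, without D22 replicate 3 or on the 6 libraries alone, 14 on these 6 with the replicate block and 10 with DESeq2. Cacna1f lost its call without D22 replicate 1, D25 replicate 2 or D25 replicate 3 (1.30 to 1.82).

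**Figure D2:**
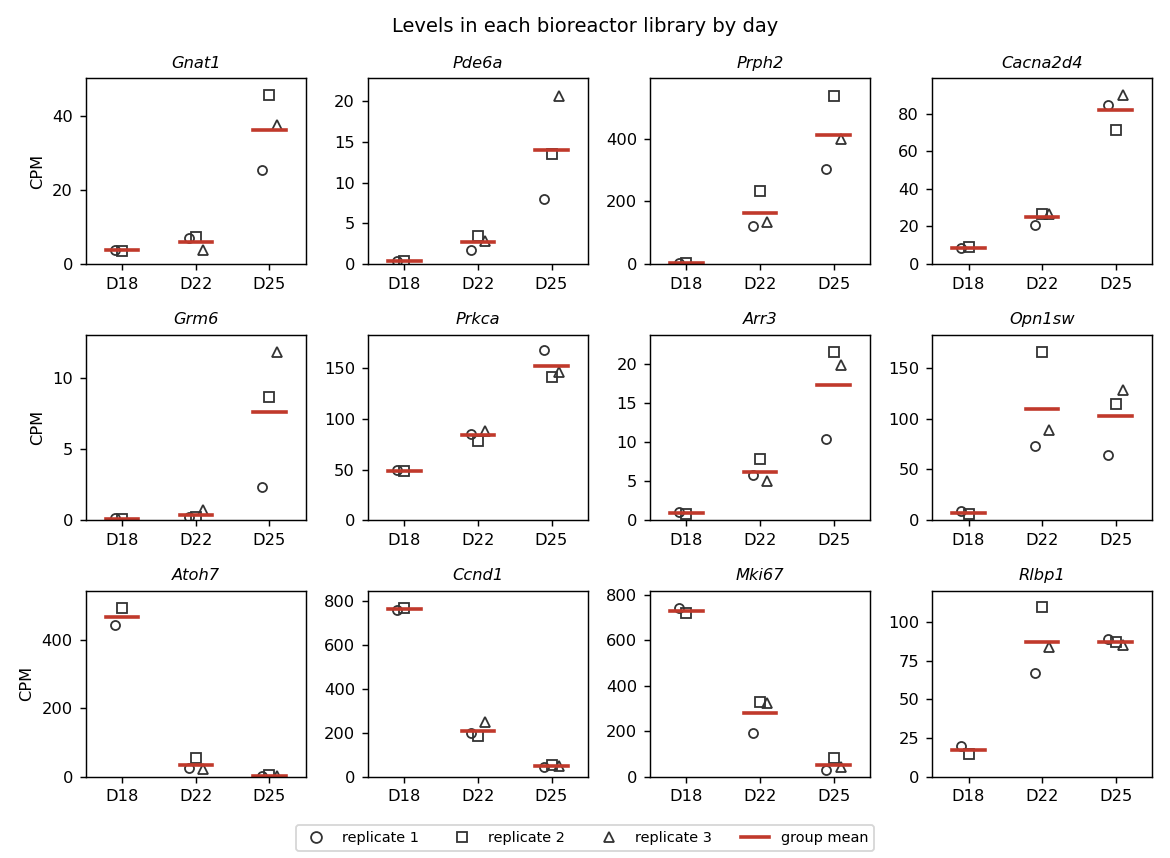
CPM (y axis, from 0) of 12 genes in each RWB library at D18, D22 and D25 (x axis), with a symbol for each replicate number and a red bar at the group mean. Gnat1, Pde6a, Cacna2d4 and Prkca are highest at D25 with no overlap with D22, Opn1sw and Rlbp1 overlap between D22 and D25, and Atoh7, Ccnd1 and Mki67 are highest at D18 and lowest at D25.

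None of 12 rod transcription factors was called, beside 1.97% and 3.23% of all genes, and their median log2 fold change was 0.47. This count changed with the fit: 1 member, Samd7, was called higher with the replicate block over all 24 libraries, with DESeq2 or with limma-voom, and 4 were with that block on the 6 libraries alone, Nrl and Nr2e3 among them (adjusted p = 0.00979 and 0.00981). Nrl, which commits a precursor to the rod fate, had 812, 471 and 500 CPM at D25, against 479, 298 and 311 CPM at D22. Its days overlapped narrowly, and its log2 fold change was 0.71 ± 0.41, adjusted p = 0.384. Nr2e3, which acts with Nrl to repress cone genes, had 302, 315 and 307 CPM at D25, against 202, 176 and 191 CPM at D22. All D25 libraries lay above all D22 libraries, and the fitted change was 0.70 ± 0.41, adjusted p = 0.394. Crx, the homeodomain factor of both photoreceptor types, had 1637, 1608 and 1408 CPM at D25, against 1340, 1122 and 873 CPM at D22, with no overlap (0.48 ± 0.26, adjusted p = 0.343). At D18, Nrl had 13.5 and 7.29 CPM, Nr2e3 2.72 and 2.43 CPM and Crx 556 and 415 CPM, and Nrl and Nr2e3 thus stood far above their D18 levels at D22 already. The D22 libraries enter both steps, so their changes are not independent.

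Among cone genes, 1 of 16 was called higher and none lower, beside 1.97% and 3.23% of all genes. Their median log2 fold change was 0.03, as over all genes. Opn1sw, the short-wave cone opsin, had 64.2, 115 and 128 CPM at D25, against 73.1, 166 and 89.4 CPM at D22. The days overlapped, and the log2 fold change was -0.10 ± 0.46, adjusted p = 0.942. The cone transducin Gnat2 had 228, 83.3 and 86.7 CPM at D25, against 163, 175 and 78.7 CPM at D22 and overlapped likewise (-0.07 ± 0.43, adjusted p = 0.956). Arr3, cone arrestin, was the member called, with 10.4, 21.6 and 19.9 CPM at D25, against 5.79, 7.82 and 4.99 CPM at D22. It was higher in each D25 library than in any D22 library, with a log2 fold change of 1.48 ± 0.37, adjusted p = 0.0230, and lost its call without D22 replicate 1 or 3 or D25 replicate 2 or 3 (1.29 to 1.74). No cone gene was called on the 6 libraries alone, 3 were with the replicate block there, and 2 were with that block over all 24 libraries or with DESeq2. The summed CPM of the cone genes was 4406, 2555 and 2948 at D25, against 3591, 2776 and 2303 at D22, highest in replicate 1 on both days.

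**Figure D3:**
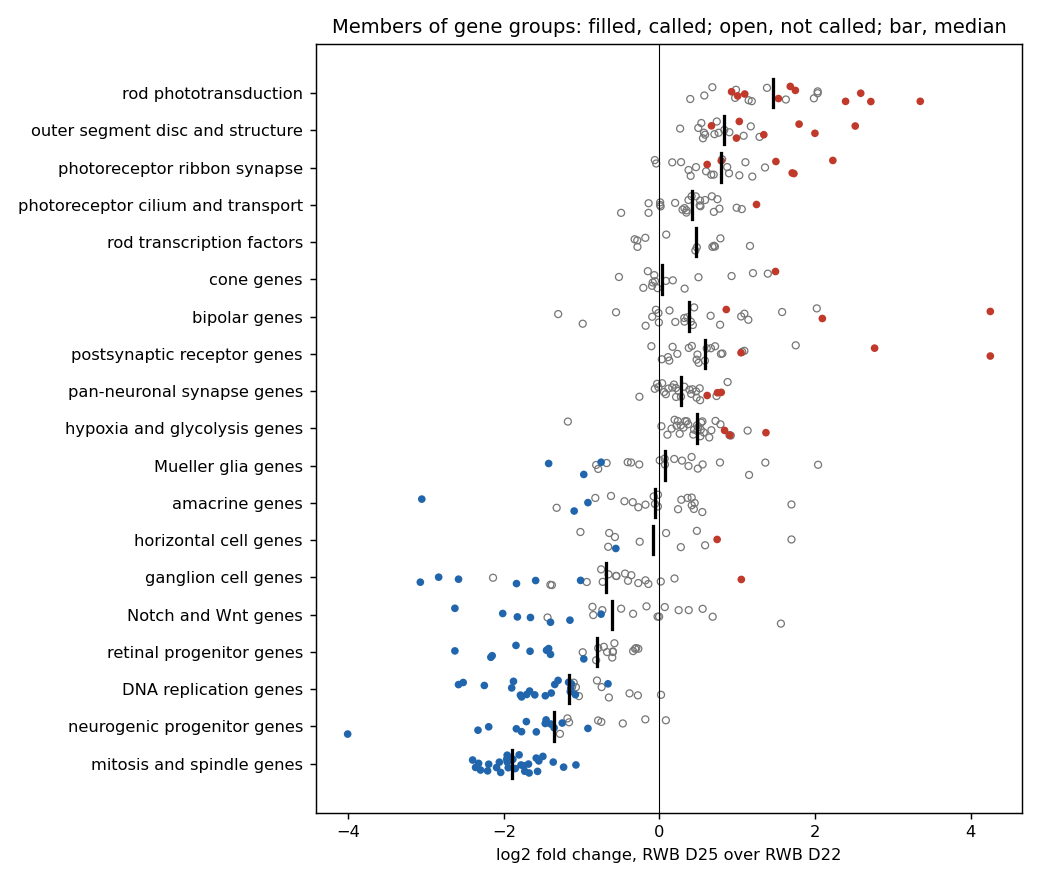
Each row is a gene group and each point 1 tested member, with its log2 fold change, RWB D25 over RWB D22, on the x axis. Filled red points were called higher and filled blue points lower, open points were not called, and the black bar is the group's median, which is 1.46 for rod phototransduction, 0.03 for cone genes and -1.89 for mitosis and spindle genes.

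Bipolar cells receive the photoreceptor signal. Of their 26 genes tested, 3 were called higher and none lower, beside 1.97% and 3.23% of all genes. The median log2 fold change of these 26 was 0.38. Grm6 (chr11:50850685-50866208), the glutamate receptor of ON bipolar dendrites, had 2.30, 8.66 and 11.8 CPM at D25, against 0.229, 0.246 and 0.685 CPM at D22. It was near absent at D22, with 18 estimated counts in the 3 libraries together against 389 at D25, and lay higher in each D25 library (4.25 ± 0.54, adjusted p = 0.000135). Prkca, a kinase that marks rod bipolar cells, had 168, 142 and 147 CPM at D25, against 85.4, 78.4 and 88.0 CPM at D22. The rise was close to equal in the 3 replicates (0.86 ± 0.17, adjusted p = 0.00473). Scgn, a calcium-binding protein of cone bipolar cells, had 3.41, 2.18 and 2.94 CPM at D25, against 0.610, 0.862 and 0.499 CPM at D22, with a log2 fold change of 2.09 ± 0.38, adjusted p = 0.00248. All 3 kept their call whichever of the 6 libraries was left out, and 1 was called on the 6 libraries alone. With the replicate block, 1 bipolar gene was called lower in each fit, and 5 were called higher on the 6 libraries alone. The cation channel gene Trpm1 ranged over 6.62 to 20.5 CPM at D25 and 5.91 to 14.02 CPM at D22. Of 23 postsynaptic receptor genes, Grm6, Gabrr1 and Glrb were called higher (1 without D22 replicate 2 or on the 6 libraries alone, and 8 there with the replicate block), with a median of 0.59.

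Among the early-born and glial types, the edgeR fits without a replicate block called no such rise beyond single genes. Over all genes, 1.97% were called higher and 3.23% lower. For ganglion cells, 6 of 24 genes were called lower and 1 higher, with a median log2 fold change of -0.69. Sncg, a synuclein of ganglion cells, had 1.43, 2.06 and 1.12 CPM at D25, against 5.71, 20.3 and 12.8 CPM at D22. Each D25 library lay below each D22 library (-3.07 ± 0.52, adjusted p = 0.00127). Pou4f3, a POU factor of ganglion cells, had 0.634, 0.311 and 0.214 CPM at D25, against 1.83, 1.91 and 3.12 CPM at D22, all low, with -2.58 ± 0.48, adjusted p = 0.00294. Tubb3, Rbpms, Pou4f1 and Pou4f2 were the others called lower and the neurofilament gene Nefh was the one called higher, at 1.05. The count of ganglion genes called lower was 3 without D22 replicate 2 or D25 replicate 1 and 2 without D22 replicate 3, 1 on the 6 libraries alone, 10 there with the replicate block and 3 with limma-voom, and Nefh lost its call without D22 replicate 2 (log2 fold change 0.97). The call of Pou4f1 was lost with the replicate block within the RWB groups (adjusted p = 0.0534). Of 23 amacrine genes, 3 were called lower: Ptf1a, Gad2 and Sstr2. Ptf1a, which specifies amacrine and horizontal cells, had 0.714, 0.685 and 0.214 CPM at D25, against 3.81, 5.35 and 4.05 CPM at D22. It lay lower in every D25 library (-3.06 ± 0.51, adjusted p = 0.00116) and kept its call whichever library was left out, while the calls of Gad2 (-1.23 to -0.93) and Sstr2 (-1.17 to -0.71) were lost without D22 replicate 1, D22 replicate 3 or D25 replicate 1, and that of Sstr2 also without D22 replicate 2 or D25 replicate 3. On the 6 libraries alone, 1 amacrine gene was called. The mature amacrine marker Gad1 had 137, 131 and 238 CPM at D25, against 111, 97.9 and 136 CPM at D22 and overlapped (0.55 ± 0.30, adjusted p = 0.345). Of 22 Müller glia genes, Sox2, Lhx2 and Dkk3, which progenitors also express, were called lower (1 without D22 replicate 3 or without D25 replicate 1). On the 6 libraries alone no Müller glia gene was called, and with the replicate block there 6 were called lower and 3 higher. In that blocked fit Aqp4, a Müller glia marker, had a log2 fold change of 1.46 (edgeR adjusted p = 0.016). Clu and Gfap had 1.34 and 1.72 there (edgeR adjusted p = 0.0006 and 0.0018). Aqp4, Clu and Gfap did not pass over all 24 libraries without the block (edgeR adjusted p = 0.397, 0.105 and 0.155). Rlbp1, a retinoid carrier of Müller glia, had 89.1, 87.1 and 85.5 CPM at D25, against 67.3, 110 and 83.9 CPM at D22, with a log2 fold change of 0.00 ± 0.25, adjusted p = 0.997.

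Genes of dividing cells fell as a group. All 30 mitosis and spindle genes tested were called lower, beside 3.23% of all genes, with a median log2 fold change of -1.89. Mki67 (chr7:135689784-135716361), the gene of the proliferation marker Ki-67, had 30.8, 83.6 and 44.3 CPM at D25, against 190, 326 and 324 CPM at D22. The days lay far apart, with -2.40 ± 0.39, adjusted p = 0.00103. Aurka, a kinase of the spindle poles, had 7.14, 8.85 and 8.71 CPM at D25, against 35.5, 27.6 and 26.4 CPM at D22. Racgap1, needed to divide the cell after mitosis, had 21.8, 26.9 and 23.3 CPM at D25, against 73.9, 55.1 and 74.5 CPM at D22. Ube2c, which tags cyclins for destruction, had 7.85, 8.10 and 6.25 CPM at D25, against 32.2, 21.9 and 28.9 CPM at D22. No D25 library reached a D22 library for any of these, and the log2 fold changes were -1.85 ± 0.23, adjusted p = 0.000135 for Aurka, -1.50 ± 0.19, adjusted p = 0.000135 for Racgap1 and -1.90 ± 0.24, adjusted p = 0.000135 for Ube2c. The summed CPM of the 30 genes was 511, 726 and 414 at D25, against 1947, 2360 and 1945 at D22. With each library left out in turn, 29 or 30 were called lower, and on the 6 libraries alone 19 were.

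The promoters of mitosis genes often hold TTTGAA, the cell cycle homology region (CHR) bound by complexes that repress these genes outside mitosis. The motif, searched on either strand in the same window, was found in 21 of 28 promoters of the list (75.0%), 12.6% of all promoters of genes tested, 23.2% of those of genes called lower and 13% of those of genes called higher. Promoters of Aurka, Racgap1 and Ube2c are shown because these genes were among the mitosis genes of smallest p and hold the motif (capitals, TTTGAA or its reverse complement TTCAAA; RefSeq, GRCm38.p6, 5′ to 3′ on the gene's strand). Aurka lies at chr2:172370521-172370820 on the minus strand, Racgap1 at chr15:99651607-99651906 on the minus strand and Ube2c at chr2:164769679-164769978 on the plus strand.
Aurka: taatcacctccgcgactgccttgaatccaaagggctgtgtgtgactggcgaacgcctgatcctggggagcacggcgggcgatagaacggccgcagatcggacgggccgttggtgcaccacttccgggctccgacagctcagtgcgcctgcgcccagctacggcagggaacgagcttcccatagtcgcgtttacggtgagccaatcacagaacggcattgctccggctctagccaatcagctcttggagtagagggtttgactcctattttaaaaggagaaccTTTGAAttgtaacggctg
Racgap1: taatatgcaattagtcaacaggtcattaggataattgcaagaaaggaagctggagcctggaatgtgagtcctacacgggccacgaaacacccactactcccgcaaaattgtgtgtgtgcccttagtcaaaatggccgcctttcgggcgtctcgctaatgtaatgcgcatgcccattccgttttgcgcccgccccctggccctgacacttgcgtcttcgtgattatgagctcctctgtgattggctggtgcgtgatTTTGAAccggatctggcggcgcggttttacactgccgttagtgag
Ube2c: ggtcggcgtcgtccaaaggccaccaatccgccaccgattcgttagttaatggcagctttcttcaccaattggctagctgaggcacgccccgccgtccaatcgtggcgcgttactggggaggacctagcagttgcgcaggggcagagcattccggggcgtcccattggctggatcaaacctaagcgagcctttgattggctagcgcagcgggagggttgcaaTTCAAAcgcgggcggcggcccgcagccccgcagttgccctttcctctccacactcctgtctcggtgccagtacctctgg

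DNA replication genes were lower too, with 20 of 30 called lower and none higher, beside 3.23% and 1.97% of all genes. Their median log2 fold change was -1.16. Mcm3, part of the helicase that opens replication origins, had 5.79, 8.35 and 7.96 CPM at D25, against 34.4, 47.3 and 51.2 CPM at D22. The D25 libraries lay in a narrow range below all D22 libraries (-2.58 ± 0.33, adjusted p = 0.000135). Its helicase partners Mcm5, Mcm6 and Mcm4 had log2 fold changes of -1.90, -1.88 and -1.35, and Rrm1 of ribonucleotide reductase had -1.15; all were called. Uhrf1, which keeps DNA methylation through replication, had 5.87, 10.1 and 8.55 CPM at D25, against 34.1, 47.9 and 59.3 CPM at D22, with -2.52 ± 0.41, adjusted p = 0.00103. Pcna, the replication clamp, and Lig1, a DNA ligase, had -0.80 and 0.02 and did not pass, though Pcna passed with the replicate block over all 24 libraries (adjusted p = 0.0184). The number called lower was 9 on the 6 libraries alone and 16 to 20 with each library left out in turn. The E2F site TTTCCCGC was found in 13.3% of the promoters of this list and 1.8% of all, on either strand. Lmnb1, a lamin of the nuclear envelope, had 54.1, 70.7 and 57.7 CPM at D25, against 143, 165 and 174 CPM at D22, also without overlap (-1.40 ± 0.19, adjusted p = 0.000268).

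Progenitor genes fell with them. Of 22 retinal progenitor genes, 9 were called lower and none higher, beside 3.23% and 1.97% of all genes. Their median log2 fold change was -0.80, with no value above 0. Ccnd1, the D-type cyclin of retinal progenitors, had 41.9, 51.0 and 48.6 CPM at D25, against 197, 183 and 248 CPM at D22. The days were widely separated (-2.15 ± 0.21, adjusted p = 2.30e-05). Sfrp2, a secreted Wnt modulator, had 2.06, 2.93 and 2.83 CPM at D25, against 16.1, 22.5 and 10.2 CPM at D22, with -2.63 ± 0.52, adjusted p = 0.00437. Sox2, a progenitor transcription factor, had 17.8, 11.7 and 15.5 CPM at D25, against 28.0, 29.1 and 31.0 CPM at D22, with a smaller change of -0.97 ± 0.19, adjusted p = 0.00472. Fgf15 and Hes5 were called at -1.84 and -2.17, and Pax6, which many retinal neurons keep, had -0.27 and did not pass. The number called was 5 without D22 replicate 2 or D22 replicate 3, 3 on the 6 libraries alone and 15 there with the replicate block. Fgf15 lost its call in each case except without D25 replicate 2 (-2.75 to -1.36) and Hes5 in each case except without D22 replicate 1 (-2.49 to -1.91).

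Neurogenic genes, which act as a progenitor leaves the cycle, had 13 of 21 members called lower and none higher. Over all genes, 3.23% were called lower and 1.97% higher. The median log2 fold change of the list was -1.35. Atoh7, the proneural factor required for ganglion cells, had 1.59, 3.67 and 1.18 CPM at D25, against 25.9, 55.6 and 22.4 CPM at D22. It had the lowest fold change of this list, at -4.01 ± 0.47, adjusted p = 8.93e-05, and had stood at 446 and 494 CPM at D18. Neurog2, another proneural factor, had 31.9, 26.4 and 20.5 CPM at D25, against 70.2, 63.6 and 67.5 CPM at D22. Hes6, which promotes neuronal differentiation, had 66.1, 110 and 78.4 CPM at D25, against 304, 289 and 280 CPM at D22. Neither overlapped between days, and the log2 fold changes were -1.35 ± 0.20, adjusted p = 0.000583 for Neurog2 and -1.77 ± 0.25, adjusted p = 0.000385 for Hes6. Neurog2 had 138 and 102 CPM at D18, above both later days. Neurod4, Btg2 and Insm1 had -0.79, -0.47 and 0.08 and did not pass, though Neurod4 passed with the replicate block within the RWB groups (adjusted p = 0.0459). On the 6 libraries alone, 5 members were called lower.

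Notch signalling keeps retinal progenitors from differentiating. Of 22 Notch and Wnt genes, 7 were called lower and none higher (median -0.61), beside 3.23% and 1.97% of all genes. Nrarp, a direct target and feedback inhibitor of Notch, had 12.6, 12.7 and 12.1 CPM at D25, against 52.3, 49.9 and 49.2 CPM at D22. The 3 libraries of each day were nearly equal, and the log2 fold change was -2.02 ± 0.20, adjusted p = 2.69e-05. Notch1, Lfng, Heyl, Fzd5, Dkk3 and Sfrp2 were the other members called. The number called was 3 without D22 replicate 3 or on the 6 libraries alone and 2 without D25 replicate 1. The ligand gene Jag1 and the Wnt target Axin2 had log2 fold changes of 0.07 and 0.00 and were not called.

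**Figure D4:**
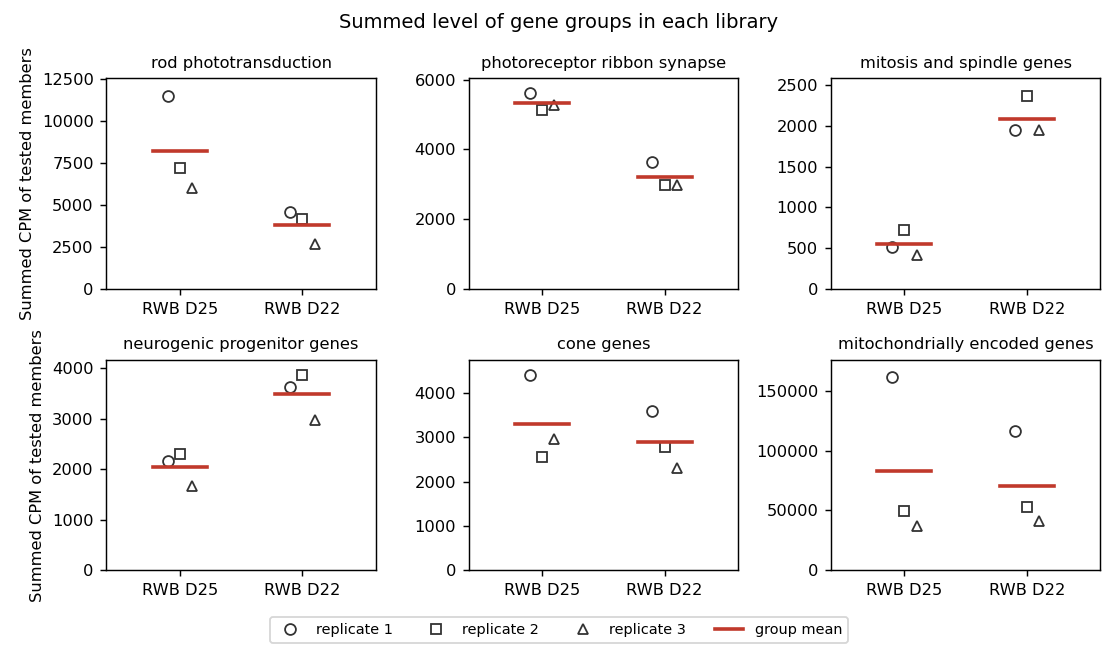
Summed CPM of the tested members of 6 gene groups (y axis, from 0) in each library of RWB D25 (left) and RWB D22 (right), with a symbol for each replicate number and a red bar at the mean. The mitosis sums are 414 to 726 at D25 and 1945 to 2360 at D22, while the mitochondrially encoded sums follow the replicate number, with replicate 1 highest on both days.

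Among metabolic groups, 3 of 33 hypoxia and glycolysis genes were called higher and none lower, beside 1.97% and 3.23% of all genes. Their median log2 fold change was 0.49, with 32 values above 0. Hk1, the first enzyme of glycolysis in neurons, had 289, 282 and 375 CPM at D25, against 128, 104 and 134 CPM at D22. It rose without overlap (1.37 ± 0.22, adjusted p = 0.000958). Eno2, the neuronal enolase, had 324, 245 and 337 CPM at D25, against 189, 147 and 148 CPM at D22, with 0.91 ± 0.19, adjusted p = 0.00828, and Aldoa had 0.84. The calls of Eno2 (log2 fold change 0.84) and of Aldoa (0.60 to 0.99) were lost without D22 replicate 2, and that of Aldoa also without D22 replicate 1 or 3 or D25 replicate 2 or 3. Aldoa also lost its call with the replicate block within the RWB groups (edgeR adjusted p = 0.0545). It kept the call with the block over all 24 libraries (edgeR adjusted p = 0.0456) or on the 6 libraries (edgeR adjusted p = 0.0282). The number called was 1 without D22 replicate 2 or on the 6 libraries alone and 5 without D25 replicate 1. Pgk1, a later enzyme of the pathway, had 1102, 1243 and 695 CPM at D25, against 838, 757 and 824 CPM at D22, with overlap (0.33 ± 0.23, adjusted p = 0.486). None of 32 nuclear genes of the respiratory chain, of 13 mitochondrially encoded genes or of 25 sterol synthesis genes was called. The mitochondrially encoded genes had a median of 0.28, which was -0.62 without D25 replicate 1 and 0.95 without D22 replicate 1. Their summed CPM was 161100, 49590 and 37100 at D25, against 116500, 52830 and 41310 at D22. Of 19 ATF4 and serine synthesis genes, the amino acid transporter genes Slc7a5 and Slc3a2 and the receptor gene Vldlr were called higher, at 0.89, 0.94 and 0.75. None of that list was called without D22 replicate 2 or on the 6 libraries alone, and 1 was without D22 replicate 1, D22 replicate 3 or D25 replicate 1. No member of the immediate early and heat shock list or of the p53 and apoptosis list was called. On the 6 libraries with the replicate block, 1 immediate early or heat shock gene was called higher and 2 lower, and 3 of the p53 list were higher.

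Markers of other cell types gave at most 1 call a list in the edgeR fit of all 24 libraries without a block. Over all genes, 1.97% were called higher and 3.23% lower. The members called lower were Zic2 of 18 ciliary margin and pigment epithelium genes, Epcam of 12 surface epithelium genes, C1qa of 9 microglia and leukocyte markers, Cldn5 of 7 endothelial markers and Cnp of 12 astrocyte and oligodendrocyte markers. Summed CPM of the endothelial list was 44.0 to 150 at D25 and 152 to 306 at D22, with Kdr, which retinal progenitors also express, at 39.6 to 144 CPM at D25 and 148 to 297 CPM at D22; Kdr passed with the replicate block within the RWB groups (log2 fold change -1.21, adjusted p = 0.00502). Summed CPM of the microglia list was 16.6 to 19.9 at D25 and 16.1 to 23.7 at D22. None of 22 mesenchyme and matrix genes was called, and their summed CPM was 342 to 496 at D25 and 371 to 613 at D22. Zic2 lost its call without D22 replicate 2 or D25 replicate 3, Epcam without D22 replicate 3, D25 replicate 1 or D25 replicate 3, and Cnp in each case except without D22 replicate 1 (log2 fold changes -0.98 to -0.65, -2.07 to -1.27 and -0.78 to -0.61). All 3 lost it on the 6 libraries alone. C1qa and Cldn5 kept their calls with each library left out (log2 fold changes -3.61 to -2.90 and -7.24 to -4.84), but were of low level. Both dropped out of a fit restricted to genes with a CPM of at least 1 in at least 3 of the 6 libraries. No member of the pluripotency, choroid plexus and forebrain, lens or muscle lists was called. On the 6 libraries with the replicate block, 1 pluripotency gene was called lower. In that blocked fit 1 mesenchyme and matrix gene was called higher and 2 lower. Summed CPM of the ciliary margin and pigment epithelium list varied among libraries, over 121 to 1172 at D25 and 179 to 628 at D22, and its part in the results was not tested.

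The genes called were also followed in static culture, where dissected cups were sampled at D28 and D22. The intervals differ, 3 days in the bioreactor and 6 in static culture, but the comparisons share no library. Of the 331 genes called higher in the bioreactor, 327 (98.8%) had a fold change above 0 in SSCd D28 over SSCd D22 and 192 were called higher there, beside 49.7% above 0 and 3.00% called higher among all genes tested. Of the 542 called lower, 536 (98.9%) had a fold change below 0 and 413 were called lower there, beside 5.05% of all genes. None was called in the opposite direction. The median log2 fold changes in SSCd were 0.82 for the genes called higher in the bioreactor and -1.22 for those called lower. Same-numbered D22 libraries of RWB and SSCd deviated together (correlations over genes 0.43, 0.203 and 0.431), so these shares are a description and carry no test.

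The difference between the changes, RWB (D25 over D22) minus SSCd (D28 over D22), was tested for each gene, and edgeR called none of 16792 genes (0%). An unadjusted p under 0.05 was met by 450 genes, DESeq2 called 5 and limma-voom 0, and on simulated data the test recovered 14% of 2-fold and 76% of 4-fold differences. The simulated differences left out genes of low level, and the simulated libraries had no replicate effect. The cone opsin Opn1sw had 64.2, 115 and 128 CPM at D25, against 73.1, 166 and 89.4 CPM at D22 in RWB, while SSCd had 13.1, 15.9 and 4.17 CPM at D28 and 41.8, 71.9 and 24.4 CPM at D22. Its log2 fold change in SSCd was -2.05 (adjusted p = 0.0116), and the difference of 1.96 ± 0.67 had an adjusted p of 0.99994. Mki67 had a log2 fold change of -2.40 in RWB and -2.76 in SSCd. Grm6 had 20.2, 42.1 and 42.7 CPM at SSCd D28, against 0.596, 0.587 and 0.700 CPM at SSCd D22, with a log2 fold change of 5.78 there and 4.25 in RWB. Lgr5, a receptor for R-spondins, had 87.3, 70.3 and 86.5 CPM at D25, against 29.6, 16.1 and 23.9 CPM at D22 in RWB, with 1.81 ± 0.34, adjusted p = 0.00338, and 67.3, 65.7 and 75.0 CPM at SSCd D28, against 38.6, 47.8 and 56.2 CPM at SSCd D22. Its difference of 1.27 ± 0.47 likewise did not pass (adjusted p = 0.99994).

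**Figure D5:**
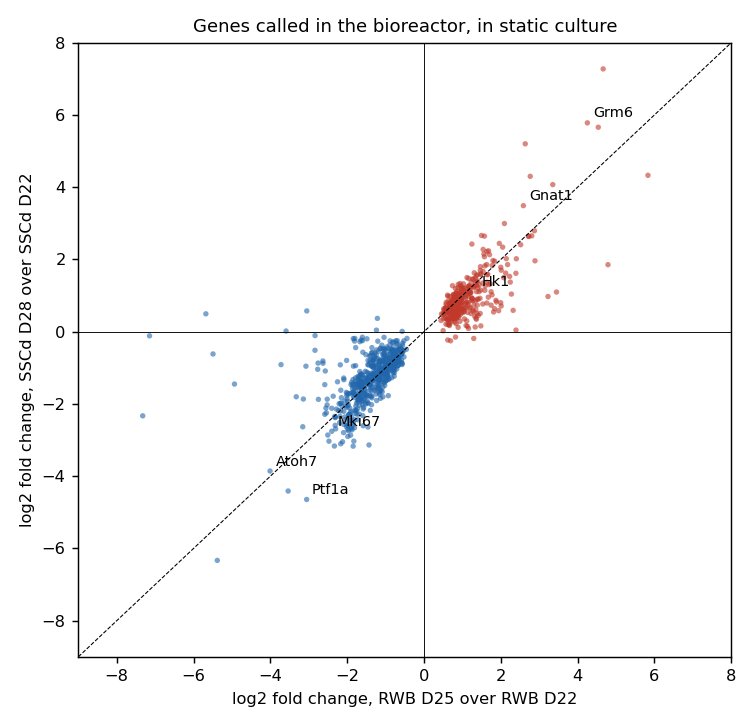
Each point is 1 of the 873 genes called between RWB D25 and RWB D22, with its log2 fold change there on the x axis and its log2 fold change in SSCd D28 over SSCd D22 on the y axis; the dashed line marks equal changes. Of 331 genes called higher (red) 327 lie above 0 on the y axis, and of 542 called lower (blue) 536 lie below 0.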

How the data were processed

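The authors deposited a table of estimated counts per gene (33846 genes, 24 libraries), a transcript table whose totals equal it, and a normalized table whose values are CPM times 1 constant per library, a score here used only as a check of the columns. Tools listed in the submitters' processing notes, with no role or order, are limma 3.32.2, kallisto 0.42.5 and edgeR 3.13.9, and the build is GRCm38.p5; whether the counting used strand is not given in the sources used here. Per the labels' protocols, polyadenylated RNA was made into stranded libraries and read in pairs.

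Estimated counts were rounded to whole numbers, and edgeR 4.0.16 (R 4.3.3) fitted 9 group means over all 24 libraries with filterByExpr (16792 genes kept), TMM factors and the robust quasi-likelihood F-test, with Benjamini-Hochberg adjusted p under 0.05 as the call. The adjusted p-values of this text come from that fit unless another tool is named. Standard errors were taken as the absolute log2 fold change divided by the square root of F. Library totals were 13284632 to 21604446 estimated counts over the series. On simulated data the test of RWB D25 against RWB D22 recovered 44% of 2-fold and 93% of 4-fold changes, with 1 false call in 138. Changes were placed only in genes above a low level, with the spread taken from its trend over expression. The simulated libraries were independent, with no replicate effect, so these rates need not hold for genes of few counts or for the real libraries. No libraries of these groups agreed within sampling noise (variance over counting noise 45.7 to 263). The numbers were taken to pair libraries, from the data: same-numbered libraries of RWB D25 and RWB D22 deviated together (correlations over genes 0.493, 0.202 and 0.372).

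Genes were named by a rule: the 12 highest and 12 lowest called, a panel of 33 and up to 5 called members of smallest p in each direction in each of 38 lists (114 genes); other list members given with values were chosen after their values were seen, and some genes the rule chose are not reported here. Members and lists were chosen with earlier results of these data known. Promoters and motifs came from RefSeq (GRCm38.p6), with 12213 of 16605 tested symbols matched.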

Additional observations from a re-analysis of the deposited data

How the results depend on the processing

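The count of genes called between RWB D25 and RWB D22, 873, was 164 in a fit of the 6 libraries alone, 1761 in that fit with the replicate number as a block, 1405 with DESeq2 1.42.0 and 437 without both libraries numbered 1; leaving out 1 library gave 445 to 738. With the replicate block, given the pairing of same-numbered libraries, it was 1128 within the RWB groups and 1249 over all 24 libraries. Of the calls given above, the block within the RWB groups ended those of Aldoa and Pou4f1. Genes called higher made up 37.9% of the calls, and 22.2% without D22 replicate 2. The count for the difference between RWB and SSCd, 0, was 1 with a replicate block on the 12 libraries and 5 with DESeq2, and 0 with each library left out. Of 94 called genes that the naming rule chose, 51 kept their call whichever of the 6 libraries was left out and 37 under every alternative run; none reversed its direction. The fit of 6 libraries alone lost 51 of these calls, and without D22 replicate 2 the number lost was 32. Depth limited genes of few counts, such as Grm6 with 18 counts at D22.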

Other observations

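Some further gene groups also held calls, beside 1.97% of all genes called higher and 3.23% called lower. Of 24 chromatin and lamina genes, Lmnb1 and Cbx1 were called lower and none higher, with a median log2 fold change of -0.38. Cbx1 lost its call without D22 replicate 1 or 2 or D25 replicate 2 or 3 and on the 6 libraries alone (-0.70 to -0.49 on the log2 scale with 1 library left out). With the replicate block, 4 members were called lower over all 24 libraries and 7 on the 6 libraries alone, and 1 member was called higher without D25 replicate 1. Of 14 retinoic acid genes tested, 1 was called lower: Crabp2, which carries retinoic acid in the cell, had 4.92, 5.79 and 2.67 CPM at D25, against 23.9, 29.6 and 24.1 CPM at D22. Each D25 library lay below each D22 library (-2.54 ± 0.39, adjusted p = 0.000751, edgeR), and the call held whichever library was left out. Of 27 pan-neuronal synapse genes, Syt1, Snap25 and Dlg4 were called higher and none lower (median 0.28), and none of the list was called without D22 replicate 2 or D25 replicate 3, on the 6 libraries alone or with no filter on low counts. Of 12 horizontal cell genes, Sept4 was called higher and Tpm3 lower, and the calbindin gene Calb1 had 29.6, 12.9 and 18.1 CPM at D25, against 16.7, 9.23 and 14.4 CPM at D22, with overlap (0.59 ± 0.31, adjusted p = 0.328, edgeR). Sept4 and Tpm3 ranged over 0.57 to 0.83 and -0.67 to -0.46 on the log2 scale with 1 library left out and each lost its call in 3 of these cases, without D22 replicates 2 and 3 and D25 replicate 1 for Sept4 and without D22 replicates 1 and 3 and D25 replicate 2 for Tpm3. Of 17 MHC and interferon genes, H2-D1, which shares sequence with other class I genes, was called higher (1.28 ± 0.32, adjusted p = 0.0210, edgeR), with 65.0, 38.5 and 71.0 CPM at D25, against 34.5, 12.7 and 24.7 CPM at D22. It lost its call without D22 replicate 2 or 3 or D25 replicate 1 or 3 (0.97 to 1.65).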
